A study of Homo sapiens with 6 samples.

Results

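The 10 genes described here, of the S100 and annexin families, were followed in TPC1, an established human papillary thyroid cancer cell line, with and without siRNA against a circular RNA. They are S100A2, S100A4, S100A6, S100A10, S100A11, ANXA1, ANXA2, ANXA3, ANXA5 and ANXA6, chosen by name, and each had 1 row among the 58735 genes of the expression table. The study asked which genes differ when hsa_circ_0000839 is silenced. Cells transfected with si-circ_0000839 gave 3 libraries, and cells transfected with control siRNA, named NC, gave 3 more. All were taken 60 h after transfection, and no other treatment is named. No row of the table was assigned to the circle, and its own level is not reported. The labels do not tell whether libraries within a group were separate cultures, and p-values therefore measure only the spread between these libraries, which may be technical. In bulk RNA, fewer cells of a type and less RNA per cell cannot be told apart.

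S100 proteins are small calcium-binding proteins that usually work as dimers. Each subunit has a pair of EF-hands, helix-loop-helix calcium sites, and calcium uptake opens a face that binds target proteins. Annexins bind acidic phospholipids at the inner face of membranes when calcium rises, through a conserved core, while a variable amino-terminal tail sets their partners. The families meet in complexes, best known for S100A10 with ANXA2 and for S100A11 with ANXA1, which take part in membrane organisation, vesicle traffic and the resealing of damaged plasma membrane. S100 and annexin genes are often abundant in thyroid and other carcinoma cells.

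A stretch in which S100A10 differs from the other S100 proteins followed is the loop of its second EF-hand. The first EF-hand was not compared. The loop codons are shown for all 5, 5′ to 3′ on the coding strand, with capitals for the 4 codons whose side chains usually hold the calcium ion. They were read from GENCODE release 29 transcripts (GRCh38), and each lies in coding exon sequence within exon 3, on the minus strand of chromosome 1. The positions are chr1:153561511-153561546 for S100A2, chr1:153543843-153543878 for S100A4, chr1:153534753-153534788 for S100A6, chr1:151983244-151983279 for S100A10 and chr1:152032743-152032778 for S100A11.
S100A2: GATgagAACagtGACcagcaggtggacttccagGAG
S100A4: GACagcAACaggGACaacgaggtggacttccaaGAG
S100A6: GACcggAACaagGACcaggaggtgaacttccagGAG
S100A10: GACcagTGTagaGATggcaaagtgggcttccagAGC
S100A11: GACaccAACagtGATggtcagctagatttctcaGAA
All 4 marked codons encoded aspartate, asparagine or, at the last place, glutamate in S100A2, S100A4, S100A6 and S100A11. In S100A10 this held for 2 of the 4, and S100A10 is known as the S100 protein that holds its open form without calcium.

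The annexin side of these complexes lies at the very start of the protein. The first 45 coding bases of the genes for both partners are shown, with the start codon in lower case and the codons of the S100-binding tail in capitals. They lie in exon 2 of each transcript, at chr9:73158536-73158580 on the plus strand for ANXA1 and chr15:60386031-60386075 on the minus strand for ANXA2 (GRCh38).
ANXA1: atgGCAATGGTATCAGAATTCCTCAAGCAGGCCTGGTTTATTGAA
ANXA2: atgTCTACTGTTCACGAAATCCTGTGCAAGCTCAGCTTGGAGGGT

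The libraries held 18399558 to 19334633 recovered reads, and the 10 genes took 0.583% to 0.642% of them. Of the thyroid markers, PAX8 averaged 96.3 ± 5.26 FPKM (SD over 3 libraries) with si-circ_0000839 and FOXE1 11.6 ± 0.906, TG was at 0.129 and 0.143 FPKM in the groups, and NKX2-1, TSHR and SLC5A5 had 0 reads throughout. The leukocyte list of 6 genes summed to 0.173 to 0.194 FPKM after si-circ_0000839 and 0.247 to 0.482 in NC, with PTPRC and CD3E at 0 reads. The 4 endothelial genes summed to 0.0409 to 0.116 and 0.0727 to 0.153 FPKM. The 6 fibroblast genes summed to 14.5 to 19.1 and 20.1 to 25.2 FPKM, nearly all of it LUM (15.8 ± 2.40 against 22.5 ± 2.53), with DCN and COL1A2 at 0 or 1 read. The part of these markers in the values below was not tested.

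FPKM values, which are fragments scaled to gene length and to a library total, placed the 10 genes across a wide range. S100A11, which binds annexins and regulates growth of keratinocytes, was the most abundant, at 1297.9 ± 54.3 FPKM after si-circ_0000839 and 1363 ± 121 in NC, the 25th highest gene of the table. S100A6, also called calcyclin, was 30th, with 16427 to 21554 reads per library. Then came S100A10, ANXA2, ANXA5 and S100A2, between 158 and 270 FPKM in every library. ANXA6 stood at 112 to 142 FPKM, ANXA1 at 40.6 to 54.6 and ANXA3 at 13.6 to 18.6. S100A4, a protein tied to cell motility and metastasis, was the lowest at 2.48 to 3.19 FPKM and rested on 50 to 62 reads per library.

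**Figure D1:**
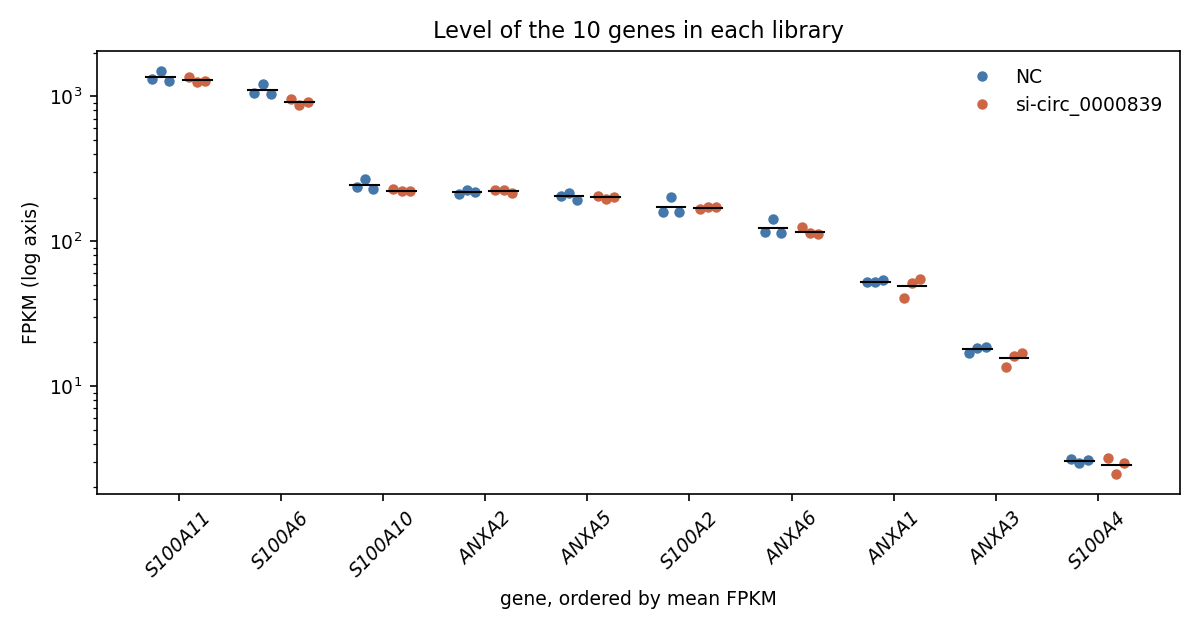
FPKM of the 10 genes (log axis) in each of the 6 libraries, one point per library, NC in blue and si-circ_0000839 in orange, with a bar at each group mean. S100A11 and S100A6 are at or above 877.6 FPKM in all libraries and S100A4 between 2.48 and 3.19, and the groups lie close together for each gene.

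Most neighbours in this order were separated in all 6 libraries. Between the lowest S100A11 value (1250.6 FPKM) and the highest S100A6 value (1221 FPKM) there was no overlap. The ranges of S100A10 and ANXA2 overlapped, with S100A10 above ANXA2 in 5 of 6 libraries. So did those of ANXA2 and ANXA5 and those of ANXA5 and S100A2, although within each library the order ANXA2, ANXA5, S100A2 held in 6 of 6. These orders are levels per kilobase of the gene length given in the table.

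That length weighs on the comparison of members. For ANXA2 the table used 8824 bases, while the transcript matched to its oldest RefSeq mRNA has 1435 bases, because 38 annotated transcripts add exon sequence to the gene. Dividing the same reads by the shorter length, a choice made after the values were seen, raised ANXA2 from 221 to 1359.7 on the FPKM scale, just below S100A6 (1476) and S100A11 (1523). ANXA2 also held the most reads of all 10 genes, 35086 to 39103 per library. ANXA1 and ANXA3 moved 3.02-fold and 3.09-fold but kept their places, eighth and ninth, and S100A10 went from the third place to the fifth. Ratios of FPKM between the groups do not depend on this length.

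**Figure D2:**
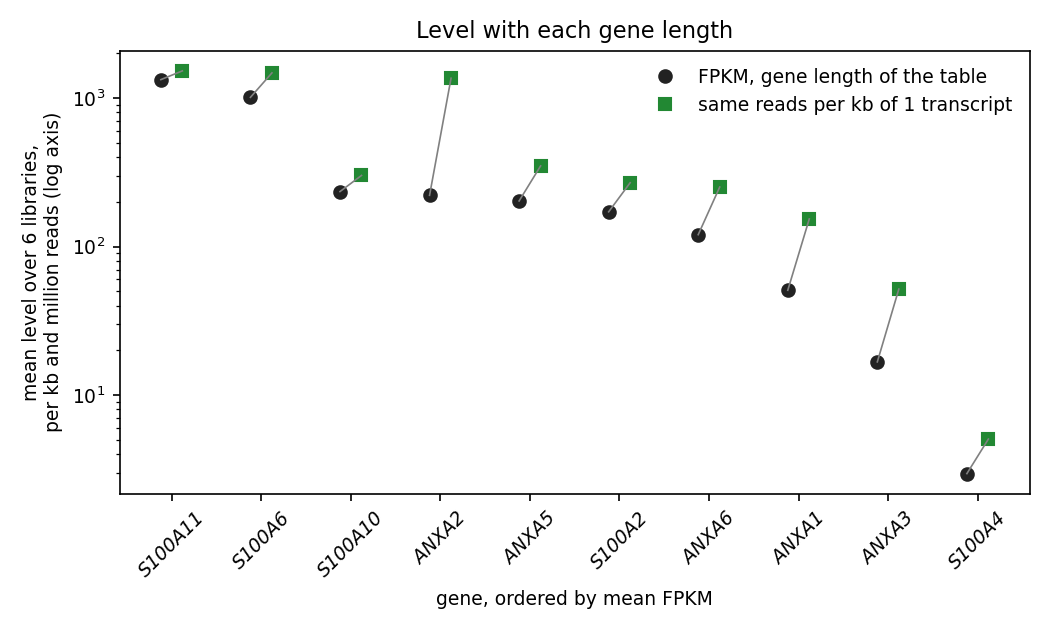
Mean level over the 6 libraries (log axis) of each gene as FPKM with the table's gene length (black circles) and with the length of 1 RefSeq-matched transcript (green squares). ANXA2 moves from 221 to 1359.7, the largest shift among the 10 genes.

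None of the 10 genes was called different after si-circ_0000839. In limma on log2(FPKM + 1), 0 of 10 members passed a Benjamini-Hochberg adjusted p of 0.05, where 41 of 10674 tested genes (0.384%) did. All 10 members passed the filter of a mean of 1 FPKM. At an unadjusted p under 0.05 there were 2 members, S100A6 and ANXA3, against 12.6% of all tested genes. The log2 difference was below 0 for 9 of 10 members, with a median of -0.08, while among all tested genes 48.2% lay below 0 and the median was 0.0057. With quantile normalization S100A11 (0.03) and ANXA5 (0.0044) lay above 0, and with TPM scaling S100A2 (0.0064) did. Groups did not overlap for 3 members (S100A6, S100A10 and ANXA3), each with si-circ_0000839 below NC. Over all tested genes 18.1% did not overlap in either direction and 7.55% in this one.

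**Figure D3:**
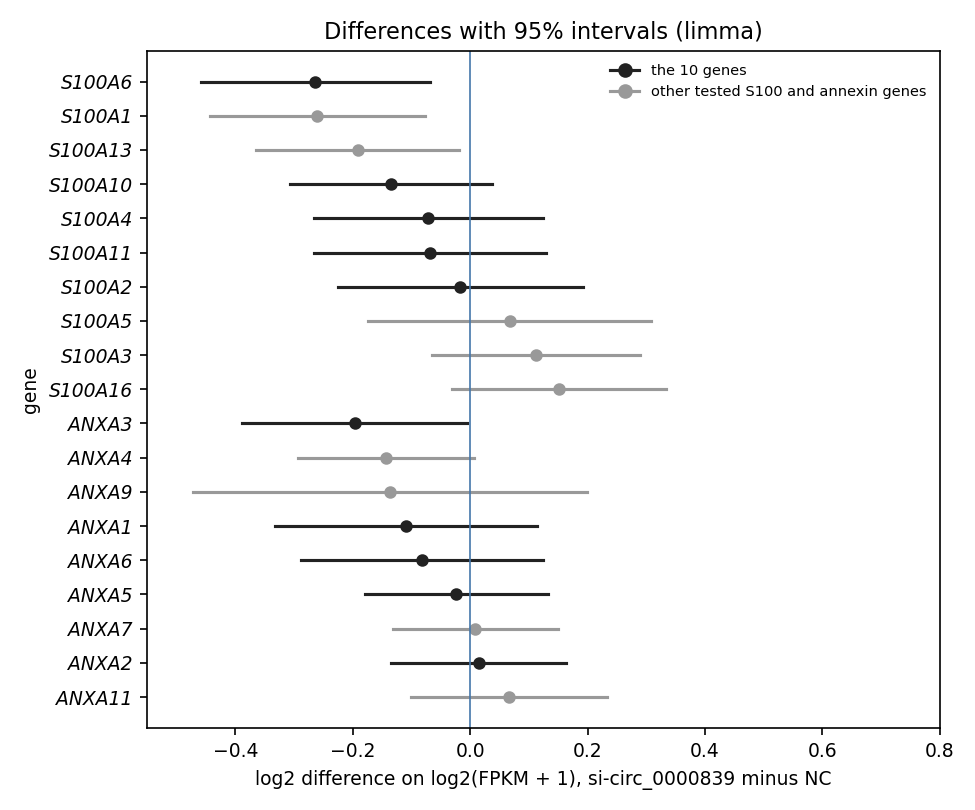
Difference between si-circ_0000839 and NC on log2(FPKM + 1) for the tested S100 genes (upper rows) and annexin genes (lower rows), with limma's 95% interval for each gene alone, black for the 10 genes and grey for other family members. S100A6 and S100A1 both lie at -0.26, and ANXA2 lies at 0.01.

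S100A6 (ENSG00000197956, chr1:153534599-153536244, minus strand) binds CACYBP and annexins and is induced in growing cells. Its level was 956, 878 and 919 FPKM in si-circ_0000839 replicates 1, 2 and 3 and 1054, 1221 and 1038 in NC replicates 1, 2 and 3. All 3 si-circ_0000839 libraries lay below all 3 NC libraries, and NC replicate 2 lay furthest above. The group means were 917.6 ± 39.2 and 1104 ± 101 FPKM, a ratio of 0.831. On the log2 scale the difference was -0.26 (SE 0.09, 95% interval -0.46 to -0.07, adjusted p = 0.261). S100A6 passed the threshold under 2 of 19 other settings, voom on the recovered reads (adjusted p = 0.0428) and removal of a GC and length trend (adjusted p = 0.0279), and over all 19 the adjusted p ran from 0.0279 to 0.648. It was below 0 in all 19, nearest to 0 at -0.17 (adjusted p = 0.0969) after quantile normalization, and at -0.19 (adjusted p = 0.158) without NC replicate 2. An annotated gene on the other strand, BX470102.1, overlaps S100A6 but held a mean of 14 reads after si-circ_0000839 and 10 in NC.

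S100A10 (ENSG00000197747, chr1:151982915-151994390, minus strand), also called p11, carries membrane proteins to the cell surface together with ANXA2 and is a docking site for plasminogen. It measured 228, 221 and 221 FPKM after si-circ_0000839 and 238, 269.5 and 229.5 in NC. The groups were separate by a narrow margin, between 228 and 229.5 FPKM. The log2 difference was -0.13 (SE 0.08, 95% interval -0.31 to 0.04, adjusted p = 0.520), and without NC replicate 2 it was -0.07. Over all 19 other settings it stayed below 0, from -0.18 to -0.07, with limma adjusted p from 0.186 to 0.798.

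S100A11 (ENSG00000163191, chr1:152032506-152047907, minus strand) gave 1357, 1251 and 1286 FPKM after si-circ_0000839 and 1320, 1499.7 and 1269.7 in NC. The groups overlapped, and the log2 difference of -0.07 (95% interval -0.27 to 0.13) was 0.0025 without NC replicate 2 and 0.03 after quantile normalization. S100A2 (ENSG00000196754, chr1:153561108-153567890, minus strand), a protein found mainly in epithelial nuclei that binds p53, stood at 166, 171 and 172 FPKM against 158, 200.8 and 159. Here 2 of the 3 NC libraries lay below all 3 si-circ_0000839 libraries and NC replicate 2 above them. The log2 difference of S100A2 was -0.02 (95% interval -0.22 to 0.19), and 0.10 without NC replicate 2. S100A4 (ENSG00000196154, chr1:153543613-153550136, minus strand) measured 3.19, 2.48 and 2.92 FPKM against 3.12, 2.95 and 3.07. Its lowest and highest values were both in si-circ_0000839 libraries, and the log2 difference was -0.07 (95% interval -0.27 to 0.12). S100A4 spans S100A3 on the same strand, itself at 15.7 against 14.4 FPKM, so reads in the shared stretch cannot be assigned to one of them.

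ANXA2 (ENSG00000182718, chr15:60347134-60402883, minus strand) links the plasma membrane to actin and is a substrate of the kinase SRC. Of the 10 genes it had the narrowest range over the 6 libraries on the log2 scale, with deviations from -0.05 to 0.04. It measured 225, 225 and 216 FPKM after si-circ_0000839 and 213, 227 and 219.8 in NC. The ranges lay almost on top of each other, with a log2 difference of 0.01 (SE 0.07, 95% interval -0.13 to 0.16). The processed pseudogene ANXA2P2 on chromosome 9, 98.4% identical to the ANXA2 coding sequence over 1017 bases, was listed at 99.2 against 104 FPKM, a mean of 1904 and 2006 reads. Reads of such a copy and of ANXA2 itself may have been exchanged, so both values are uncertain. ANXA2P1 and ANXA2P3 held at most 4 reads on average, and the copies S100A11P1 and S100A11P2 held 0.

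ANXA1 (ENSG00000135046, chr9:73151757-73170393, plus strand), the glucocorticoid-induced annexin that acts on formyl peptide receptors, stood at 40.6, 51.7 and 54.6 FPKM after si-circ_0000839 and 51.9, 51.9 and 53.7 in NC. Only si-circ_0000839 replicate 1 was low, by 0.31 below the gene's mean on the log2 scale. The log2 difference was -0.11 (95% interval -0.33 to 0.11) with that library and 0.02 without it. ANXA3 (ENSG00000138772, chr4:78551519-78610451, plus strand), an annexin studied as a carcinoma marker, showed 13.6, 16.2 and 16.8 FPKM against 16.9, 18.2 and 18.6. Its groups did not overlap, by a margin of 16.8 to 16.9 FPKM, and the same replicate 1 was lowest. The log2 difference of ANXA3 was -0.20 (SE 0.09, 95% interval -0.39 to -0.0045, adjusted p = 0.386), and -0.11 without that library. Over all 19 other settings it stayed below 0, from -0.25 to -0.10, with limma adjusted p from 0.222 to 0.666. ANXA1 and ANXA3 have the lowest GC content of the 10 genes, 39.3% and 40.0% in their longest transcript, and in the same library the quintile of tested genes with the highest GC had a median deviation of 0.12. With a GC and length trend over all genes removed, the log2 difference was -0.05 for ANXA1 and -0.16 for ANXA3. The limma adjusted p was then 0.713 and 0.222. ANXA2, with 44.0% GC, deviated by 0.03 in si-circ_0000839 replicate 1. The part of GC content in these values was not tested.

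ANXA5 (ENSG00000164111, chr4:121667955-121697113, minus strand), the annexin used to stain phosphatidylserine on dying cells, measured 205, 197 and 201.1 FPKM after si-circ_0000839 and 205, 215 and 193 in NC. The si-circ_0000839 values lay within the NC range, with a log2 difference of -0.02 (95% interval -0.18 to 0.13). ANXA6 (ENSG00000197043, chr5:151100712-151157882, minus strand), built of a duplicated annexin core and known to slow cholesterol and receptor traffic, stood at 124, 113 and 112 FPKM against 116, 142 and 114. The groups overlapped, and the log2 difference of -0.08 (95% interval -0.29 to 0.12) was 0.02 without NC replicate 2.

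One NC library thus stood out across the members. NC replicate 2 had the highest value of 7 of the 10 genes, and the median member lay 0.15 above its mean there on the log2 scale, against -0.06 to 0.02 in the other 5 libraries. In the same library the shortest quintile of tested genes had a median of 0.10 and the quintile with the highest GC 0.08, while the median of all tested genes was 0.0052. With the GC and length trend removed, the log2 difference was -0.01 for S100A11, -0.03 for S100A4, -0.13 for ANXA6 and -0.02 for ANXA5. It was above 0 for S100A2 (0.01) and below 0 for ANXA2 (-0.0036). For S100A6 it was -0.23 (limma adjusted p = 0.0279) and for S100A10 -0.11 (limma adjusted p = 0.186). The sum of the 10 genes was 3849 FPKM in NC replicate 2, 3299 and 3376 in the other 2 NC libraries and 3126 to 3319 after si-circ_0000839. FPKM in NC replicate 2 were scaled to 0.958 times its recovered reads, the lowest such factor of the 6 libraries. In si-circ_0000839 replicate 1 the factor was 0.971, and the median member deviated by -0.0099. The part of length, GC content or this factor in the member values was not tested. Without NC replicate 2 the log2 difference was above 0 for S100A2, S100A11, ANXA2, ANXA5 and ANXA6.

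**Figure D4:**
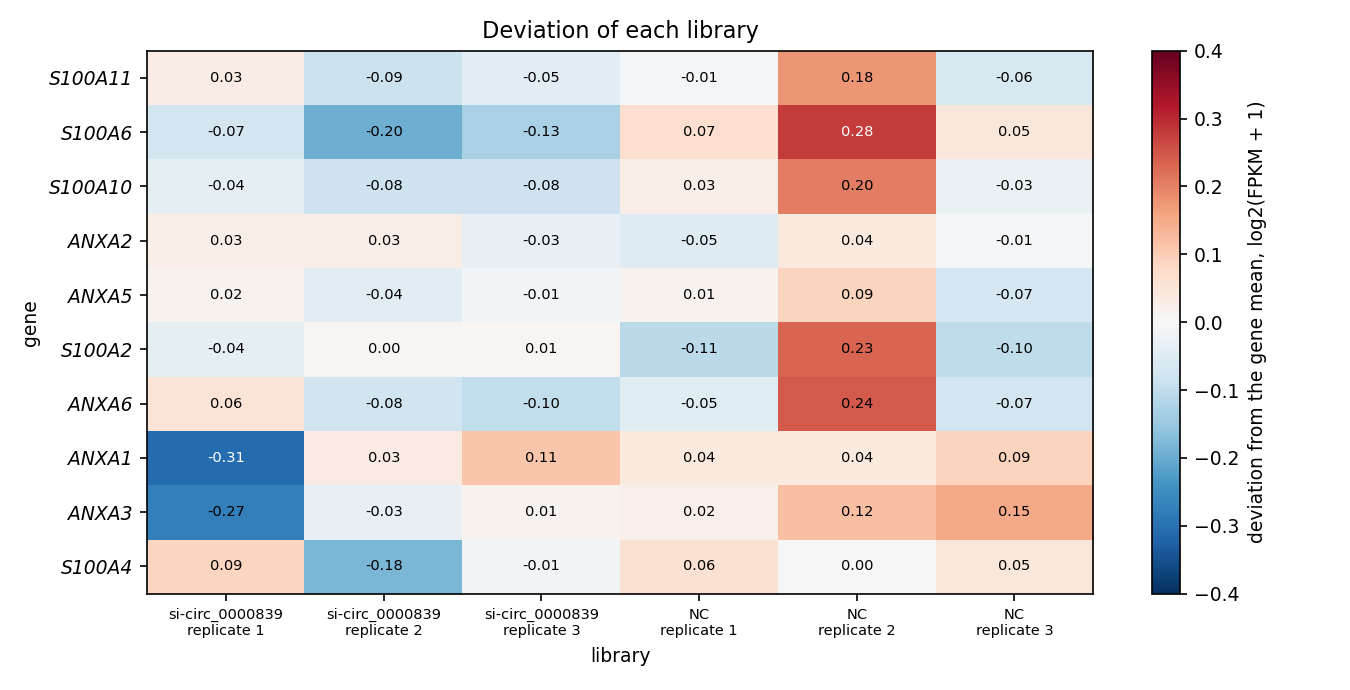
Deviation of each gene in each library from its mean over the 6 libraries on log2(FPKM + 1), red above and blue below, genes ordered by mean FPKM. NC replicate 2 is red for S100A6 (0.28), ANXA6 (0.24) and S100A2 (0.23), and si-circ_0000839 replicate 1 is blue for ANXA1 (-0.31) and ANXA3 (-0.27).

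The known pairs were also compared within each library, where the scaling of the library cancels. Library shifts tied to gene length or GC content do not cancel. S100A10 has 1543 bases and 56.2% GC, and ANXA2 has 8824 bases and 44.0% GC. The part of such shifts in the ratios was not tested. The S100A10 to ANXA2 ratio of FPKM was 1.01, 0.979 and 1.02 in the si-circ_0000839 libraries and 1.12, 1.19 and 1.04 in NC. All 3 NC ratios lay above all 3 others, at means of 1.12 ± 0.0709 and 1.005 ± 0.0224 (SD, n = 3 per group). A two-sided exact permutation test gave p = 0.1, which is the lowest value 3 against 3 can give, and 0.2 after adjustment over 2 ratios. The log2 difference of the ratio was -0.15, and -0.11 without NC replicate 2. The S100A11 to ANXA1 ratio was 33.5, 24.2 and 23.5 after si-circ_0000839 and 25.5, 28.9 and 23.6 in NC, with overlapping groups (two-sided exact permutation p = 0.9, also after adjustment). Its log2 difference was 0.04, and it turned to -0.12 without si-circ_0000839 replicate 1 and to -0.02 without NC replicate 3. With the table's length for ANXA2 these ratios are not numbers of molecules.

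The 3 genes with the pattern closest to S100A6 over the 6 libraries were ISG15, GMPR2 and UBE2S, at Euclidean distances of 0.0538, 0.0677 and 0.0699 between deviations on log2(FPKM + 1), among tested genes averaging 10 FPKM or more. ISG15, a ubiquitin-like protein induced by interferon, was at 128, 120 and 127 FPKM after si-circ_0000839 and 142, 162 and 138 in NC. Like S100A6 it was highest in NC replicate 2 and lowest in si-circ_0000839 replicate 2. The 3 genes were chosen for this likeness, so it is not a separate result. None of the 3 passed the threshold (adjusted p = 0.261, 0.289 and 0.176).

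Among the wider family, expression was split along chromosome 1. There, 17 S100 genes lie between positions 151982915 and 153632039, and 10 of them, 5 of the members included, averaged 1 FPKM or more. S100A9, S100A12, S100A8, S100A7A, S100A7L2 and S100A7, which lie next to each other and include the calprotectin subunits of inflammation, had 0 to 2 reads per library. In the block from S100A6 to S100A2 beside them each gene averaged above 1 FPKM, from 1.06 FPKM for S100A5 to 1104 for S100A6 in NC. S100A5 was near that limit, at 0.908 to 1.32 FPKM over the libraries on 14 to 19 reads. S100A14 had 0 to 3 reads although both its neighbours, S100A16 and S100A13, were expressed. In all, 8 of the 21 S100 genes had 0 reads in every library, for which 3 reads would have given at most 0.0370 to 0.487 FPKM depending on gene length, a limit that covers counting error only.

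**Figure D5:**
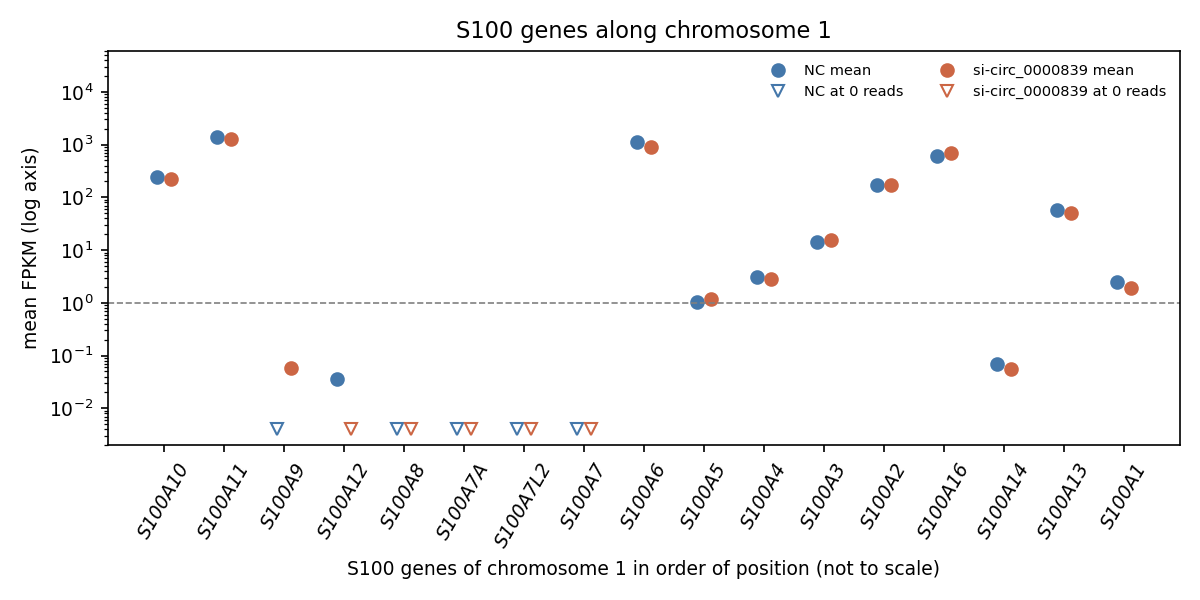
Mean FPKM (log axis) of the 17 S100 genes of chromosome 1 in order of position, NC in blue and si-circ_0000839 in orange, with open triangles at the foot for means at 0 reads and a dashed line at 1 FPKM. Genes from S100A9 to S100A7 lie under the line and those from S100A6 to S100A16 above it.

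Of the S100 list 10 of 21 genes were tested and 0 were called, 3 above 0 and 7 below, with a median log2 difference of -0.07. S100A13, which takes part in the release of FGF1, measured 51.4, 49.1 and 49.1 FPKM after si-circ_0000839 and 54.1, 63.5 and 54.2 in NC (log2 difference -0.19, SE 0.08, adjusted p = 0.348). S100A1, a calcium sensor of muscle, stood at 1.88 ± 0.164 against 2.45 ± 0.0924 FPKM (log2 difference -0.26, adjusted p = 0.241). Both lay below NC without overlap, which with S100A6 and S100A10 makes 4 of the 10 tested S100 genes, against 7.55% of all tested genes. S100A13 and S100A1 overlap on opposite strands, and as the strand setting is not given their reads cannot be told apart in the shared stretch. They may therefore not be separate cases among the 4, and neither was examined under other settings. S100A16 was at 706, 641 and 687 FPKM against 593, 662 and 579, with overlapping groups (log2 difference 0.15, 95% interval -0.03 to 0.33, adjusted p = 0.491). Of 13 annexin genes 9 were tested and 0 called, with a median of -0.08. ANXA4 lay below NC without overlap at 9.17 ± 0.414 against 10.2 ± 0.0805 FPKM (adjusted p = 0.418), while ANXA7 (47.6 against 47.3 FPKM) and ANXA11 (37.5 against 35.8) had overlapping groups.

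Partners of these proteins were measured as well, and 0 of the tested genes of each list were called. Of 12 partners of S100A10 and ANXA2, 6 were tested, 5 above 0, with a median of 0.08. Among all tested genes 5529 of 10674 lay above 0, and the list was not examined under other settings. The scaffold AHNAK was at 42.7 against 39.7 FPKM, SRC at 45.7 against 43.6 and KCNK3, a potassium channel that S100A10 binds, at 157 against 153.5. DLC1, a GTPase-activating protein (4.46 ± 0.0316 against 3.77 ± 0.580 FPKM, adjusted p = 0.3999), and PLAT, tissue plasminogen activator (2.28 ± 0.0492 against 1.91 ± 0.122), lay above NC without overlap, which 10.6% of all tested genes did. PLAT was named after its values were seen. ASIC1, an ion channel named after its values were seen, was under the filter at 0.673 ± 0.0584 against 0.318 ± 0.0812 FPKM and 29 to 78 reads (adjusted p = 0.381 when all genes were tested).

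All 12 receptors and targets of S100 proteins were tested, and no group pair was free of overlap. Of these 11 lay above 0, with a median of 0.08, where 5529 of all 10674 tested genes did. The signs of this list were read under the main setting only. The chaperone adaptor STIP1 was at 101.3 ± 4.16 against 88.8 ± 8.58 FPKM (adjusted p = 0.366), the S100A4 target MYH9 at 208 against 189, the surface glycoprotein BSG at 262 against 242 and CACYBP at 38.0 against 36.8. AGER, the receptor RAGE, was near 1 FPKM in both groups, at 1.23 against 1.14. AGER and CACYBP were named after their values were seen. The receptor of ANXA1, FPR1, lay under the filter at 0.568, 0.510 and 0.587 FPKM after si-circ_0000839 and 1.09, 0.827 and 1.05 in NC. Its groups did not overlap, on 26 to 55 reads (adjusted p = 0.414 when all genes were tested), FPR2 had 0 to 2 reads and FPR3 none. The phospholipase gene PLA2G4A was at 0.942 against 1.06 FPKM.

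Genes of membrane repair and other calcium sensors showed values on both sides of 0. In the membrane repair list 11 of 14 were tested, 5 above and 6 below 0, with a median of -0.0020. CHMP4C, an ESCRT-III subunit, had the smallest p at 6.37 ± 0.127 against 7.48 ± 0.562 FPKM (adjusted p = 0.310), while CHMP4B (134 against 131), the calpain subunit CAPNS1 (154 against 163.5) and CAPN2 (69.6 against 68.8) had overlapping groups. Of 12 other calcium sensors all were tested, 4 above and 8 below 0, with a median of -0.04. CALM3 and CALM2 both encode calmodulin. CALM3 was at 203 ± 14.5 against 177 ± 9.68 FPKM and CALM2 at 55.2 ± 5.45 against 62.2 ± 0.485, both without overlap (adjusted p = 0.348 and 0.397). CIB1, at 88.0 against 98.9 FPKM, did not overlap either (limma adjusted p = 0.416). That makes 3 of the 12 genes, against 18.1% of all tested genes without overlap in either direction.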

How the data were processed

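The authors deposited 1 table of FPKM values for 58735 genes and 6 libraries, with gene lengths and coordinates, per the file headers. The submitters' processing notes list HISAT2 2.0.5 together with featureCounts 1.5.0-p3, without their roles. Strand setting, scaling total and build were not given in the sources, but all 58735 genes had the position of GENCODE release 29, so coordinates are GRCh38. FPKM times length was a whole multiple of 1 step per library for 100% of values above 0, which gave reads. The tolerance was 0.01 of a read, or a small fixed fraction of the gene's reads where that was larger. It was thus wider for abundant genes such as ANXA2, so the 100% says less about them.

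FPKM values are not counts, so limma 3.58.1 in R 4.3.3 was fitted to log2(FPKM + 1) of the 10674 genes averaging 1 FPKM or more, with a trended prior variance, group as the only term and Benjamini-Hochberg adjustment over all of them. Intervals of 95% are for single genes. Members and lists were chosen with earlier results of these data known. All members are named, and of each list its called genes and up to 4 others by level or smallest p, except where a later choice is stated. GC content was taken from each gene's longest GENCODE transcript. Transcripts were matched through GENCODE's RefSeq table. Libraries of a group differed by more than counting noise (chi-square per degree of freedom 3.14 to 10.8).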

Additional observations from a re-analysis of the deposited data

How the results depend on the processing

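Counts of called genes moved with the settings. Against 41 genes, 4 were called with no filter, 68 with a minimum of 5 FPKM, 63 after quantile normalization, 84 with voom on recovered reads, 220 after the GC and length trend was removed, 125 among protein-coding genes alone and 20 without 2 libraries known to stand apart (si-circ_0000839 replicate 1 and NC replicate 2). Leaving out 1 library gave 20 to 37. The share of higher calls was 14 of 41, but 29 of 63 after quantile normalization, 32 of 56 with TPM, 47 of 84 with voom and 111 of 220 without the GC and length trend. Of the members, 1 (S100A6) was called with voom and 1 (S100A6) without that trend, and 0 under the other 17 settings. Of 189 member values 172 kept direction and side of the threshold, 2 became calls and 15 changed sign, none of them a call. These signs changed after quantile normalization for S100A11 (0.0259) and ANXA5 (0.0044), with TPM for S100A2 (0.0064), and without the GC and length trend for S100A2 (0.0142) and ANXA2 (-0.0036). Without the 2 libraries they changed for S100A2 (0.11), ANXA1 (0.0092) and ANXA5 (0.00069). With 1 library left out the ranges were -0.193 to 0.0176 for ANXA1, -0.133 to 0.0015 for S100A4, -0.0083 to 0.0379 for ANXA2, -0.0745 to 0.0958 for S100A2, -0.117 to 0.0025 for S100A11, -0.0638 to 0.0145 for ANXA5 and -0.139 to 0.0199 for ANXA6. The log2 difference of the S100A11 to ANXA1 ratio ran from -0.119 to 0.135. The cause of these shifts was not tested. With the replicate block 35 genes were called and 0 members. Deviations from the group means correlated at -0.15, -0.29 and 0.15 between same-numbered libraries. The highest correlation, 0.35, was between si-circ_0000839 replicate 1 and NC replicate 2. With 3 libraries per group such correlations cannot decide whether the numbers mark a shared culture or batch. Reads per library limit S100A4 most.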
